A study of Homo sapiens with 2 samples.

Results

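The genes described here are 41 listed genes of autophagy: the machinery that starts and builds the autophagosome, the ATG8 proteins and the enzymes that attach them to lipid, the cargo receptors, and the transcription factors and lysosomal membrane proteins at the end of the pathway. They were listed by symbol for their known roles, and all 41 were found among the 58174 gene identifiers of the expression table. A mean of at least 1 TPM over both libraries was reached by 39 of them, and RB1CC1 and MAP1LC3A lay below it. TPM, the unit of the table, is corrected for transcript length and relative to the library's total, so levels of different genes may be compared within a library.

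The levels came from 2 RNA sequencing libraries of PC3, a human prostate cancer cell line. In 1 library the cells had been transfected with a small interfering RNA (siRNA) against POH1, and in the other with a control siRNA. POH1, whose gene symbol is PSMD14, is the deubiquitinase of the regulatory particle of the proteasome. With 1 library per group there was no replicate error, so no test between groups was made and every difference is one between these libraries.

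Macroautophagy encloses cytoplasm in a double membrane and delivers it to lysosomes. The ULK1 kinase complex starts the process, a class III phosphatidylinositol 3-kinase (PI3K) complex marks the growing membrane with the lipid PI3P, and a pair of ubiquitin-like conjugation systems attach ATG8 proteins (LC3 and GABARAP) to it. Cargo receptors bind ubiquitinated material on one side and ATG8 proteins on the other, and TFEB, TFE3 and MITF are transcription factors that can raise lysosomal and autophagy genes. Autophagy is known as the route by which cells can clear ubiquitinated protein when the proteasome is weak.

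The targeted gene, PSMD14, was at 35.1 TPM in the POH1 siRNA library and 50.9 TPM in the control library, which is 69.0% of the control. Its log2 difference of -0.52 goes with the label but lay within the 1.5-fold size used below, and it was -0.24 after the adjustment for GC content described further on. The protein was not measured. Epithelial and mesenchymal markers known in PC3 (KRT8, KRT18, EPCAM, CD44 and VIM) lay between 124 and 556 TPM over both libraries. Of the androgen-responsive prostate markers, KLK3 and KLK2 were listed at 0 in both libraries. The 3 leukocyte markers summed to 2.17 TPM in the POH1 siRNA library and 1.59 TPM in the control library, with CD3E at 0 in both, and the 3 endothelial markers summed to 4.66 TPM in the POH1 siRNA library and 5.97 TPM in the control library. Since TPM does not carry the number of reads, sequencing depth is unknown here and counting error cannot be stated.

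Differences are log2(TPM + 1) in the POH1 siRNA library minus log2(TPM + 1) in the control library. A gene is called higher or lower where this difference reached 1.5-fold, which is 0.585 on the log2 scale, and the pseudocount of 1 makes the difference smaller than the plain TPM fold for low genes. Of the 39 autophagy genes with a mean of at least 1 TPM, 8 were lower, 2 were higher and 29 lay within 1.5-fold. Among all 15008 genes with such a mean, 8.88% were lower and 10.2% were higher, against 20.5% and 5.13% of the autophagy genes. At 2-fold, 4 autophagy genes were lower and 1 was higher, against 2.93% and 2.15% of all genes. The median difference of the 39 genes was 0.07 and that of all genes was 0.12, and 6 of the 8 lower genes belonged to the ATG8 family or the conjugation enzymes. With the libraries scaled so that the median gene has a ratio of 1, the log2 difference moves down by up to 0.14, and by less for low genes because of the pseudocount. ATG13, ATG101, BECN1 and TFEB turn negative under it, and 13 autophagy genes in place of 8 are then lower by 1.5-fold, against 12.3% of all genes in place of 8.88%.

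**Figure D1:**
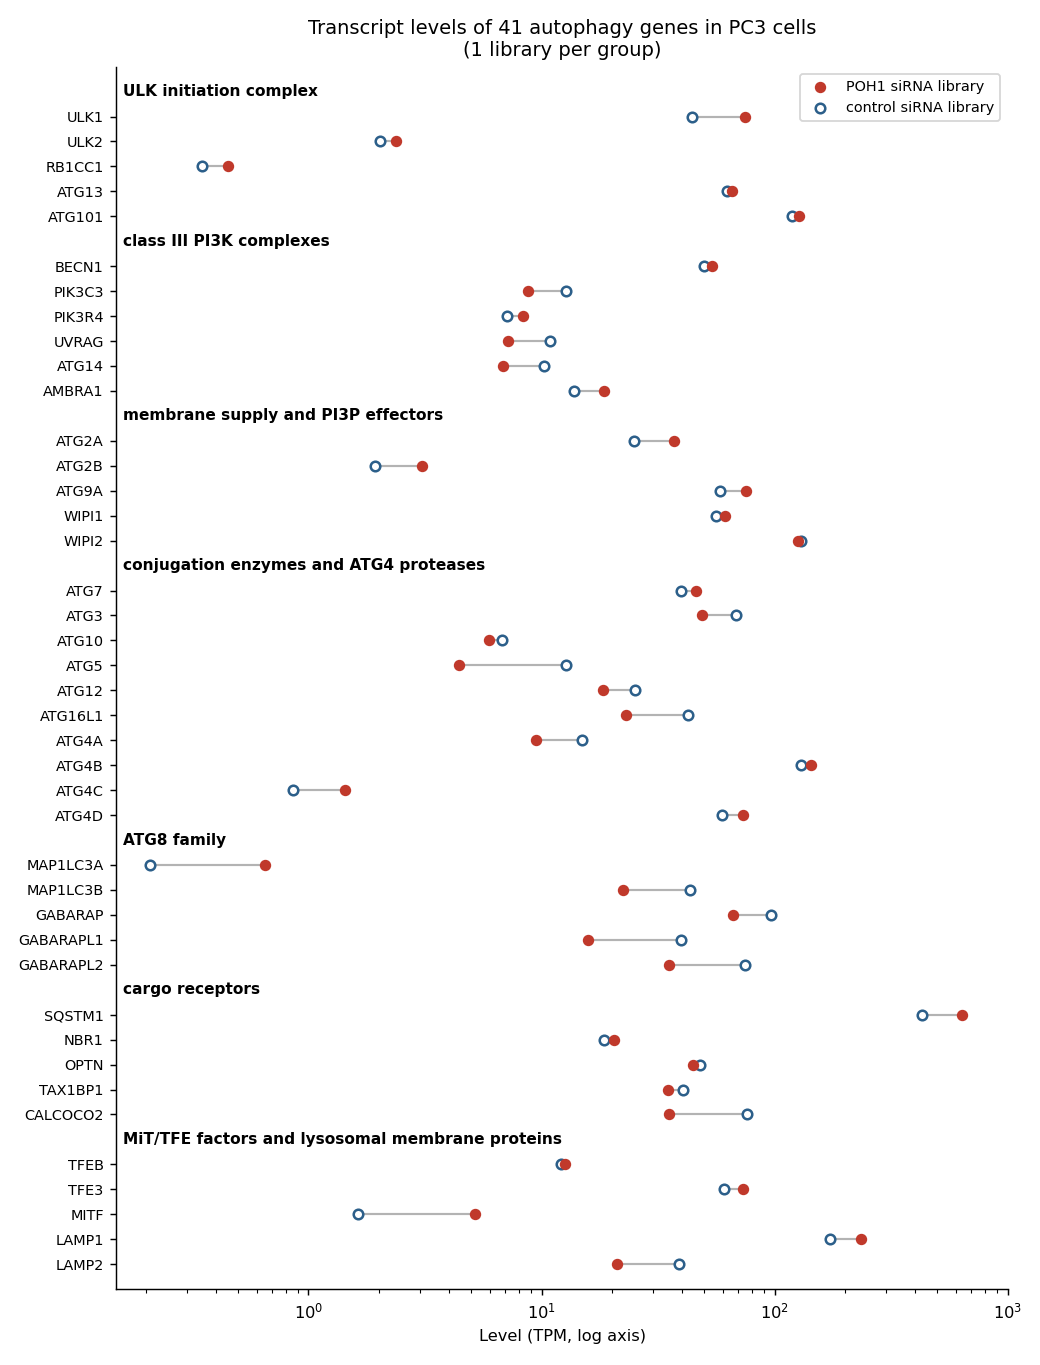
Levels of the 41 autophagy genes in TPM on a log axis, grouped by step, with filled points for the POH1 siRNA library and open points for the control siRNA library. The widest gaps toward a lower level after POH1 siRNA were those of ATG5, GABARAPL1, CALCOCO2 and GABARAPL2, and the levels ran from below 1 TPM for RB1CC1 and MAP1LC3A to 636 TPM for SQSTM1.

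Of the 4 genes picked as examples, 3 are ATG8 genes that were lower together, and LAMP1 lay on the other side of 0. Their promoter sequences are shown with regulatory strings marked, and only the GABARAPL1 and LAMP1 windows hold any of these strings. They are RefSeq windows of 300 bases on build GRCh38.p14, from 250 bases before the transcription start site to 50 bases after it, read 5′ to 3′ on the gene's strand, which is the plus strand for all 4. The expression table is in hg19, so these coordinates are those of the sequences only. Capitals mark CACGTG, the E-box at the core of the element bound by TFEB, TFE3 and MITF, and TGACGTCA, the cyclic AMP response element bound by CREB and ATF factors. Both letter strings read the same on both strands, and they do not overlap in these windows.
GABARAPL1 (chr12:10212627-10212926): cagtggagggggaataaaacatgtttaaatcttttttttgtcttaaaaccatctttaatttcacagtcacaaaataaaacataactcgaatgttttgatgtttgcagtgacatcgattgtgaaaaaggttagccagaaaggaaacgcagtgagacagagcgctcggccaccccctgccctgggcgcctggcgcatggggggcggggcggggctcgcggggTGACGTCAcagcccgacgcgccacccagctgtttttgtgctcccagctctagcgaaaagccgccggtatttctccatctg
GABARAPL2 (chr16:75566129-75566428): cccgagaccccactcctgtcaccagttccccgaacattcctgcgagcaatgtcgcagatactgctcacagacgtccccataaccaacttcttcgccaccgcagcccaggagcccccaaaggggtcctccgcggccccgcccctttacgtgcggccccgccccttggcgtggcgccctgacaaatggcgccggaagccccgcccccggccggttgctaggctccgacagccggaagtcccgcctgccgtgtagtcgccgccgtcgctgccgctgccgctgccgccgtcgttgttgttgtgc
MAP1LC3B (chr16:87392086-87392385): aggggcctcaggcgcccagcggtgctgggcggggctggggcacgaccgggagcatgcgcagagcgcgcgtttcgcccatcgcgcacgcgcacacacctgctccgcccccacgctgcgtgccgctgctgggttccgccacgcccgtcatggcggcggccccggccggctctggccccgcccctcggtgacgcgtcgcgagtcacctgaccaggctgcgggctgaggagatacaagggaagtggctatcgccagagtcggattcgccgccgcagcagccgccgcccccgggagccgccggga
LAMP1 (chr13:113296989-113297288): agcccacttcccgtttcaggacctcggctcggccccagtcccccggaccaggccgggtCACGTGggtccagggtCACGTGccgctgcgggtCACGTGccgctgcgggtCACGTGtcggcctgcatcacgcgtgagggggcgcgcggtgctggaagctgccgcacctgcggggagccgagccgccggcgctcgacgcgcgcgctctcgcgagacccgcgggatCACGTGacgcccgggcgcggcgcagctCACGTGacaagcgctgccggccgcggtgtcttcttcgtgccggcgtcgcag

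The LAMP1 window held 6 copies of CACGTG, and the GABARAPL1 window held 1 copy of TGACGTCA, which starts 30 bases before the start site. The GABARAPL2 and MAP1LC3B windows held neither string. Over the 36 autophagy genes with a window in the RefSeq table, 3 (8.33%) held CACGTG, namely ATG14, ATG3 and LAMP1, against 8.77% of all 27305 genes in that table. By log2 difference, ATG14 (-0.53) and ATG3 (-0.48) lay below 0 and LAMP1 (0.44) above it. The longer string TCACGTGA, which contains CACGTG, was in the windows of ATG3 and LAMP1 (5.56% of the 36), against 1.18% of all genes. TGACGTCA was in a window of GABARAPL1 and of MITF (5.56%), against 2.25% of all genes. GABARAPL1 had a log2 difference of -1.27 and MITF of 1.24, so each string was found on both sides of 0. Some genes have several windows, one for each annotated start, and a gene was counted where any of them held the string. A match describes the letters and is no evidence of binding.

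Transcripts of the ATG8 family were lower after POH1 siRNA, with the lowest median of the 7 steps. These small ubiquitin-like proteins are attached to phosphatidylethanolamine on the autophagosome membrane, where they recruit receptors and help the membrane close and fuse. GABARAPL1 was at 15.9 TPM in the POH1 siRNA library and 39.7 TPM in the control library, 2.50-fold lower, with a log2 difference of -1.27. GABARAPL2, also known as GATE-16, was at 35.3 TPM in the POH1 siRNA library and 74.5 TPM in the control library, 2.11-fold lower, with a log2 difference of -1.06. Both GABARAPL1 and GABARAPL2 were past 2-fold. In a bulk culture a lower level in every cell and a loss in some of the cells cannot be told apart.

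MAP1LC3B, which encodes LC3B, the protein most often used to mark autophagosomes, was at 22.4 TPM in the POH1 siRNA library and 43.6 TPM in the control library, with a log2 difference of -0.93. GABARAP itself, the most abundant of the family, was at 66.05 TPM in the POH1 siRNA library and 97.0 TPM in the control library, and its log2 difference of -0.55 stayed within 1.5-fold. MAP1LC3A, which encodes LC3A, was at 0.651 TPM in the POH1 siRNA library and 0.209 TPM in the control library, below the mean of 1 TPM. In all, 3 of the 4 family members above that mean were lower and all 4 lay below 0, with a median log2 difference of -0.99. Among all 15008 genes, 1.47% had a difference as low as that of GABARAPL1 or lower, 2.47% as low as GABARAPL2 and 3.46% as low as MAP1LC3B.

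Summed over its 5 genes, the ATG8 family was at 140.3 TPM in the POH1 siRNA library and 255.0 TPM in the control library, which is 55.0% of the control. The subfamilies were close to each other in this share: the sum of the 3 GABARAP subfamily genes was 55.5% of the control, and that of the 2 LC3 genes was 52.7%. The ratio of the subfamilies was therefore close in both libraries, at 5.08 units of GABARAP transcripts to 1 of LC3 in the POH1 siRNA library and 4.82 to 1 in the control library. The order of levels within the family was the same in both libraries: GABARAP, GABARAPL2, MAP1LC3B, GABARAPL1 and MAP1LC3A. GABARAP made up 47.1% of the family's TPM in the POH1 siRNA library and 38.0% in the control library, while GABARAPL1 made up 11.3% in the POH1 siRNA library and 15.6% in the control library.

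Near-identical copies could take reads from these genes. MAP1LC3B2, a retrocopy of MAP1LC3B, was at 0.624 TPM in the POH1 siRNA library and 0.647 TPM in the control library, and adding it and the other copies named after the family left the log2 ratio of the family's sum at -0.86, the value without them. GABARAP shares same-strand exons with an unnamed gene model that was at 44.7 TPM in the POH1 siRNA library and 88.6 TPM in the control library. The log2 difference of GABARAP with it was -0.74, past 1.5-fold. MAP1LC3B overlaps FBXO31 on the opposite strand, which was at 17.2 TPM in the POH1 siRNA library and 6.13 TPM in the control library, and whether reads were assigned by strand is not given in the sources used here.

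**Figure D2:**
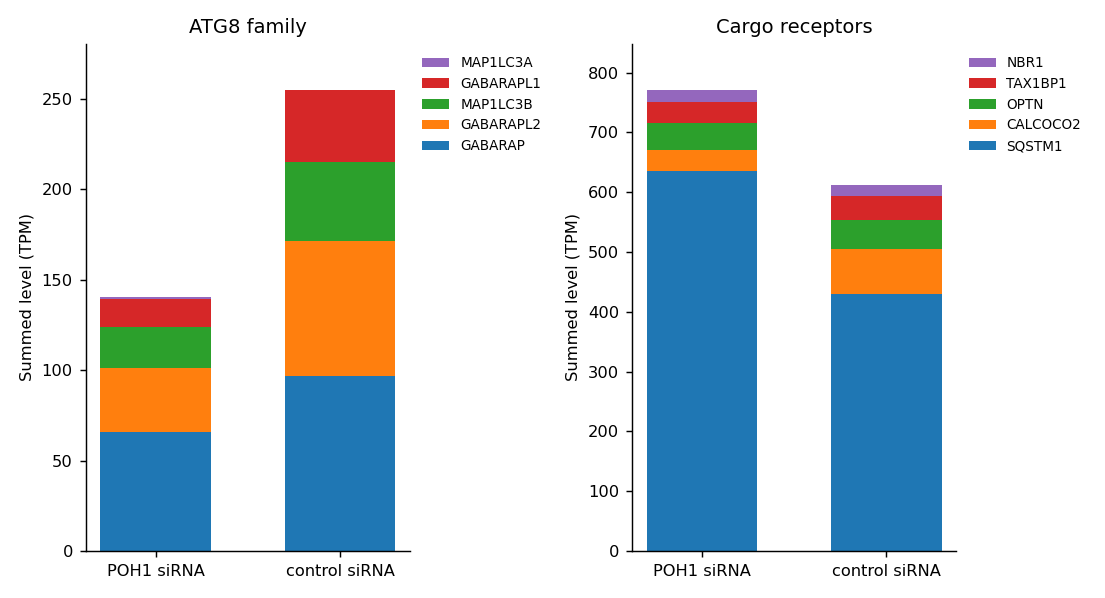
Stacked bars of the TPM of the 5 ATG8 family genes (left) and the 5 cargo receptor genes (right), with the POH1 siRNA library left of the control siRNA library in each panel. The ATG8 bar reached 140.3 TPM after POH1 siRNA and 255.0 TPM after control siRNA, while the receptor bar reached 771 TPM after POH1 siRNA and 613 TPM after control siRNA, most of it SQSTM1.

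Among the conjugation enzymes, 3 of 10 were lower and none was higher, against 8.88% and 10.2% of all genes. The median log2 difference of the 10 genes was -0.29, and their median GC content was 44.9%. After the adjustment for GC content described further on, their median was 0.01. Of the 10 genes, 2 were then lower and 1 was higher, against 5.19% and 12.6% of all genes. ATG5, which is joined to ATG12 and with ATG16L1 forms the complex that directs ATG8 proteins to the membrane, was at 4.44 TPM in the POH1 siRNA library and 12.8 TPM in the control library. It was 2.88-fold lower, with a log2 difference of -1.34, the lowest of the 39 genes. ATG16L1, the subunit that places the complex on the membrane, was at 23.1 TPM in the POH1 siRNA library and 42.4 TPM in the control library, with a log2 difference of -0.85. ATG12, the ubiquitin-like partner of ATG5, was at 18.4 TPM in the POH1 siRNA library and 25.1 TPM in the control library, a log2 difference of -0.43 that lay within 1.5-fold. ATG12 overlaps AP3S1 on the opposite strand (13.1 TPM in the POH1 siRNA library and 22.0 TPM in the control library), so its value is uncertain. The 3 genes of this complex together were at 45.9 TPM in the POH1 siRNA library and 80.3 TPM in the control library, or 57.2% of the control, which is close to the share of the ATG8 family.

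The enzymes that activate and transfer these proteins lay within 1.5-fold. ATG7, the single E1-like enzyme of both conjugation systems, was at 46.1 TPM in the POH1 siRNA library and 39.6 TPM in the control library. ATG7 overlaps VGLL4 on the opposite strand (44.8 TPM in the POH1 siRNA library and 26.8 TPM in the control library), so its value is uncertain. ATG3, the E2-like enzyme for ATG8 proteins, was at 49.0 TPM in the POH1 siRNA library and 68.6 TPM in the control library, with a log2 difference of -0.48. ATG10, the E2-like enzyme for ATG12, was at 5.95 TPM in the POH1 siRNA library and 6.75 TPM in the control library. ATG10 overlaps the abundant ribosomal protein gene RPS23 on the opposite strand (454 TPM in the POH1 siRNA library and 865 TPM in the control library), so its value is uncertain.

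The ATG4 proteases, which trim ATG8 proteins before conjugation and release them afterwards, did not share a direction. ATG4A was at 9.46 TPM in the POH1 siRNA library and 14.9 TPM in the control library, and at a log2 difference of -0.60 it was just past 1.5-fold. ATG4B, the most abundant of the 4, was at 143.5 TPM in the POH1 siRNA library and 129.5 TPM in the control library. ATG4D was at 73.5 TPM in the POH1 siRNA library and 59.45 TPM in the control library, and ATG4C at 1.43 TPM in the POH1 siRNA library and 0.861 TPM in the control library. ATG4B, ATG4C and ATG4D all lay above 0 and within 1.5-fold, although ATG4C passed 1.5-fold as a plain TPM ratio (1.665). The ratio of ATG4B to ATG4A was 15.2 in the POH1 siRNA library and 8.70 in the control library.

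**Figure D3:**
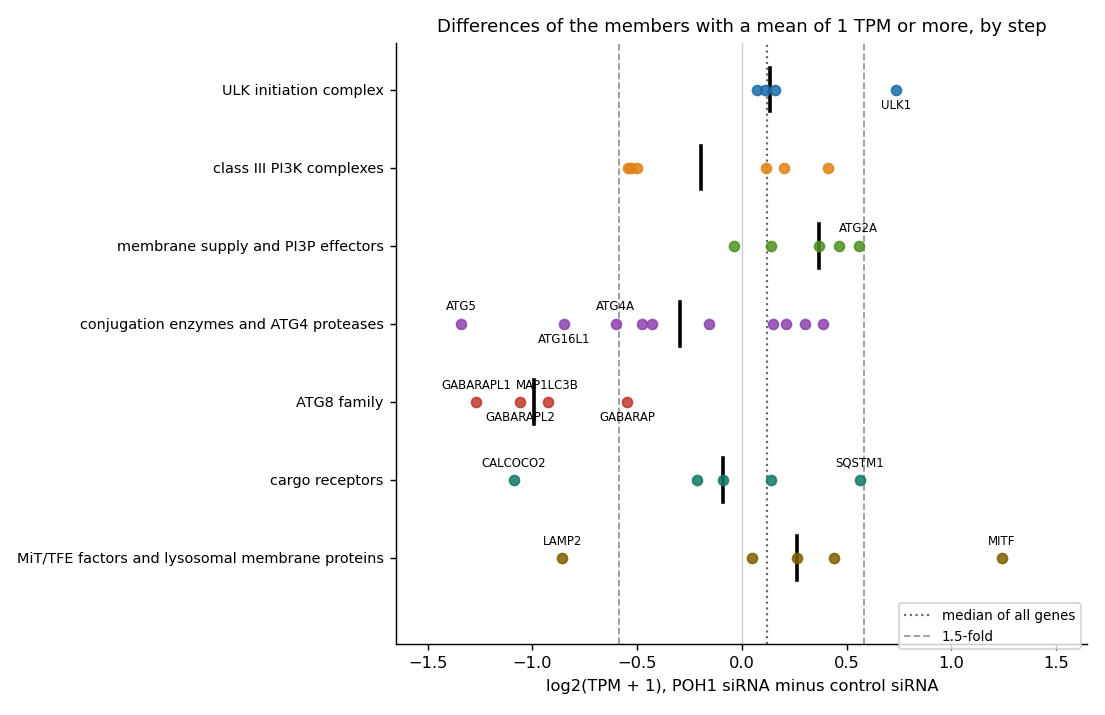
Difference in log2(TPM + 1), POH1 siRNA minus control siRNA, for the 39 autophagy genes averaging at least 1 TPM, in rows by step, with a black bar for each step's median, dashed lines at 1.5-fold and a dotted line at the median of all genes (0.12). All 4 ATG8 family points lie left of 0 and the step's median is -0.99, while 4 of 5 membrane genes lie right of 0, as do the 4 ULK complex genes, of which ATG13 and ATG101 turn negative with median scaling. Of all 15008 genes averaging at least 1 TPM, 9182 lie right of 0.

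The initiation complex showed no lower gene. ULK1, the kinase that starts autophagosome formation, was at 74.5 TPM in the POH1 siRNA library and 44.3 TPM in the control library, 1.68-fold higher, with a log2 difference of 0.74. It was the only gene of the complex past 1.5-fold. ULK2, its paralogue, was at 2.38 TPM in the POH1 siRNA library and 2.02 TPM in the control library, so ULK1 was the more abundant kinase in both libraries. The scaffold subunit ATG13 was at 65.97 TPM in the POH1 siRNA library and 62.7 TPM in the control library, and ATG101, which stabilises ATG13, at 127.9 TPM in the POH1 siRNA library and 118.5 TPM in the control library. RB1CC1, which encodes the large scaffold FIP200, was at 0.453 TPM in the POH1 siRNA library and 0.35 TPM in the control library, the lowest level in the complex.

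In the class III PI3K complexes all 6 genes lay within 1.5-fold, and 3 lay on each side of 0, or 4 below it with median scaling, where BECN1 turns negative. Below 0 were PIK3C3, the lipid kinase VPS34, at 8.76 TPM in the POH1 siRNA library and 12.8 TPM in the control library, and the subunits that decide between its 2 complexes. ATG14, the subunit specific to autophagosome formation, was at 6.83 TPM in the POH1 siRNA library and 10.3 TPM in the control library, a log2 difference of -0.53. UVRAG, the subunit of the endosomal form, was at 7.17 TPM in the POH1 siRNA library and 10.9 TPM in the control library, a log2 difference of -0.54. ATG14 and UVRAG passed 1.5-fold as plain TPM ratios (1.51 and 1.52) and missed it on the log2(TPM + 1) scale.

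Above 0 were BECN1, which encodes the scaffold Beclin 1, at 54.1 TPM in the POH1 siRNA library and 49.9 TPM in the control library, and the pseudokinase gene PIK3R4 at 8.31 TPM in the POH1 siRNA library and 7.10 TPM in the control library. AMBRA1, a Beclin 1 partner that also serves cullin ligases, was at 18.6 TPM in the POH1 siRNA library and 13.8 TPM in the control library, with a log2 difference of 0.41. The step's median was -0.19. BECN1 overlaps PSME3 on the opposite strand, which was at 23.2 TPM in the POH1 siRNA library and 39.6 TPM in the control library.

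The genes for membrane supply and the proteins that bind PI3P also all lay within 1.5-fold, with 4 of 5 above 0 and a median log2 difference of 0.37. ATG2A, a lipid transfer protein that feeds the growing membrane, was at 37.1 TPM in the POH1 siRNA library and 24.9 TPM in the control library, with a log2 difference of 0.56. Its paralogue ATG2B was at 3.06 TPM in the POH1 siRNA library and 1.94 TPM in the control library, with a log2 difference of 0.47. ATG9A, the membrane protein of the seeding vesicles and a lipid scramblase, was at 75.6 TPM in the POH1 siRNA library and 58.3 TPM in the control library. These 3 genes of lipid supply lay above 0 with none past the threshold, and 9182 of all 15008 genes also lay above 0. ATG2B passed 1.5-fold as a plain TPM ratio (1.58).

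The PI3P-binding proteins were nearly level. WIPI2, which recruits ATG16L1 to the membrane, was at 125.9 TPM in the POH1 siRNA library and 129.3 TPM in the control library. WIPI1 was at 61.6 TPM in the POH1 siRNA library and 55.9 TPM in the control library.

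The cargo receptors went different ways. SQSTM1, which encodes p62, the receptor that gathers ubiquitinated proteins, was at 636 TPM in the POH1 siRNA library and 429.8 TPM in the control library. It was 1.48-fold higher with a log2 difference of 0.56, just short of the threshold, and it was the most abundant of the 41 genes in both libraries. SQSTM1 transcripts have 60.9% GC, and the difference was 0.40 after the adjustment for GC content described further on. CALCOCO2, which encodes NDP52, a receptor for bacteria and damaged mitochondria, was at 35.2 TPM in the POH1 siRNA library and 75.9 TPM in the control library, 2.16-fold lower with a log2 difference of -1.09. It was the only receptor past 1.5-fold.

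NBR1, a receptor that acts with p62, was at 20.5 TPM in the POH1 siRNA library and 18.5 TPM in the control library. OPTN, which encodes optineurin, was at 44.8 TPM in the POH1 siRNA library and 47.7 TPM in the control library. TAX1BP1, a relative of NDP52 that is recruited by NBR1, was at 34.9 TPM in the POH1 siRNA library and 40.7 TPM in the control library. These 3 receptors lay within 1.5-fold.

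The ratio of SQSTM1 to ATG8 transcripts was higher after POH1 siRNA. The 5 receptors together were at 771 TPM in the POH1 siRNA library and 613 TPM in the control library, and without SQSTM1 the other 4 were at 135 TPM in the POH1 siRNA library and 183 TPM in the control library. SQSTM1 made up 82.4% of the receptor TPM in the POH1 siRNA library and 70.2% in the control library, and CALCOCO2 made up 4.56% in the POH1 siRNA library and 12.4% in the control library. There were 4.53 TPM of SQSTM1 for each TPM of the ATG8 family in the POH1 siRNA library and 1.69 in the control library. This ratio is not adjusted for GC content, which was 60.9% for SQSTM1 and had a median of 50.8% over the 4 ATG8 genes averaging at least 1 TPM. SQSTM1 overlaps MRNIP (52.4 TPM in the POH1 siRNA library and 26.2 TPM in the control library) and MGAT4B (196 TPM in the POH1 siRNA library and 164.5 TPM in the control library) on the opposite strand, and its value is uncertain to that extent.

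Of the transcription factors of the lysosomal programme, TFEB was level, at 12.6 TPM in the POH1 siRNA library and 12.2 TPM in the control library. TFE3, the most abundant of the 3, was at 72.95 TPM in the POH1 siRNA library and 60.7 TPM in the control library, within 1.5-fold. MITF, best known as the melanocyte factor of this family, was at 5.21 TPM in the POH1 siRNA library and 1.62 TPM in the control library, 3.20-fold higher with a log2 difference of 1.24, the highest of the 39 genes. MITF was still the least abundant of the 3 factors, and TFE3 exceeded it 14.0-fold in the POH1 siRNA library and 37.4-fold in the control library. These factors are known to be controlled mostly by phosphorylation and entry into the nucleus, which RNA levels do not show.

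The lysosomal membrane glycoproteins lay on opposite sides. LAMP1 was at 235 TPM in the POH1 siRNA library and 173 TPM in the control library, with a log2 difference of 0.44, within 1.5-fold. LAMP2, whose product serves fusion of autophagosomes with lysosomes and chaperone-mediated autophagy, was at 21.1 TPM in the POH1 siRNA library and 39.0 TPM in the control library, 1.85-fold lower with a log2 difference of -0.86. The ratio of LAMP1 to LAMP2 was 11.1 in the POH1 siRNA library and 4.43 in the control library. The table gives 1 value per gene, so the LAMP2 isoforms and the MITF isoforms are not told apart.

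Across the whole table the difference moved with the GC content of the transcripts, and the autophagy genes did so too. The Spearman correlation between difference and GC content was 0.43 over the 39 autophagy genes and 0.42 over 14983 genes with a GC content, which describes genes of the same 2 libraries. Of the 13 autophagy genes below 45% GC, 5 were lower (ATG5, LAMP2, ATG4A, GABARAPL2 and CALCOCO2, at 38.8% to 44.96% GC), against 20.1% of all genes in that range. Of the 9 autophagy genes from 45% to below 50% GC, none was lower and 1 was higher, against 10.4% and 8.56% of all genes in that range. Of the 17 autophagy genes at 50% GC or more, 3 were lower, against 2.90% of all genes in that range. The 3 were ATG16L1, at 50% GC, MAP1LC3B, at 50.4%, and GABARAPL1, at 51.8%. They lie near the lower edge of that range, so its share over all genes is not a close match for them.

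With the running median over GC content subtracted and the overall median added back, 6 autophagy genes were lower and 3 were higher, against 5.19% and 12.6% of all genes. GABARAPL1 was then at -1.24, ATG5 at -0.92, MAP1LC3B at -0.87, CALCOCO2 at -0.83, GABARAPL2 at -0.80 and ATG16L1 at -0.77. ATG4A (-0.21) and LAMP2 (-0.46) came within 1.5-fold, as did ULK1 (0.55), whose transcripts have 65.3% GC. MITF was at 1.43, and ATG2B (0.88) and ATG4C (0.74), both low in level, joined it above 1.5-fold. The ATG8 family kept 3 of 4 genes past the threshold, with a median of -0.83.

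**Figure D4:**
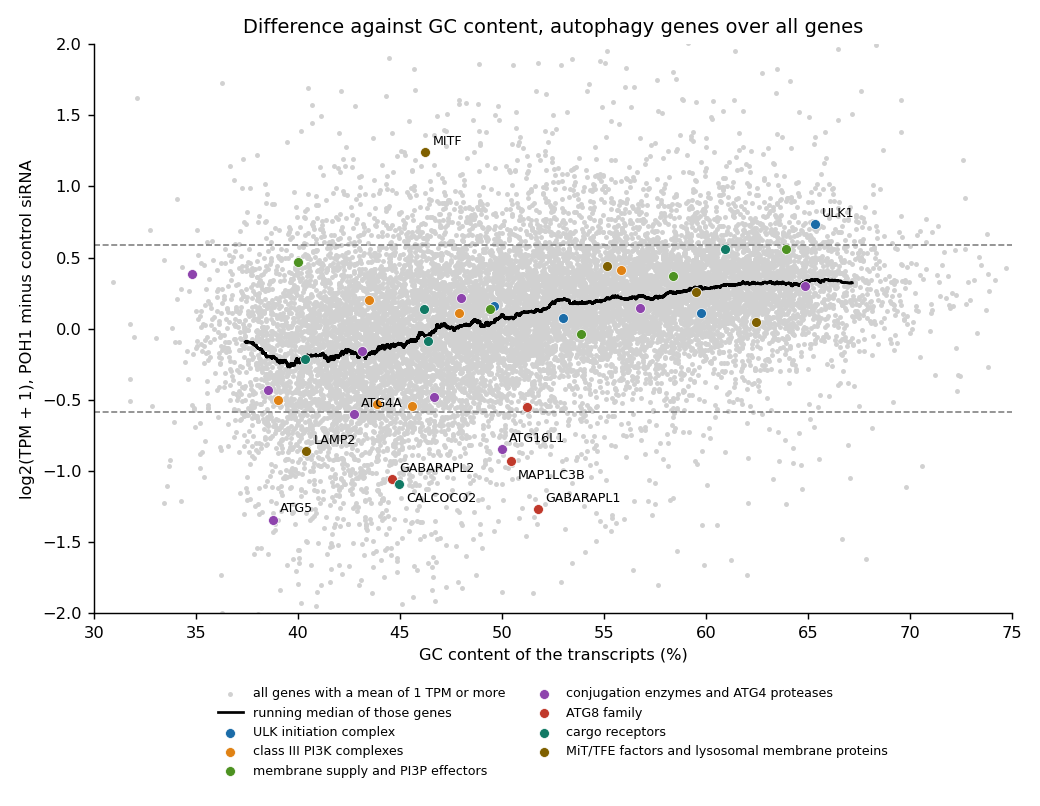
Difference in log2(TPM + 1), POH1 siRNA minus control siRNA, against the GC content of the transcripts in percent, with all genes in grey (those beyond 2 on either side not drawn), their running median as a black line and the autophagy genes coloured by step. ATG16L1, MAP1LC3B and GABARAPL1 lie near 50% GC and well under the line, while ATG4A and LAMP2 lie in the low-GC range where the line itself is below 0.

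Other genes of the pathway were described by 5 lists. Further core genes had 2 higher and 1 lower among the 12 that averaged at least 1 TPM, with a median log2 difference of 0.13. These are 16.7% and 8.33%, against 10.2% and 8.88% of all genes. ATG9B, the paralogue of ATG9A, was at 12.6 TPM in the POH1 siRNA library and 5.79 TPM in the control library, and RUBCN, whose product Rubicon restrains the class III PI3K complex of the endosome, was at 32.2 TPM in the POH1 siRNA library and 19.7 TPM in the control library. TBK1, the kinase that phosphorylates OPTN, p62 and NDP52, was at 2.33 TPM in the POH1 siRNA library and 4.20 TPM in the control library. WDR45, which encodes the PI3P-binding protein WIPI4, was at 50.8 TPM in the POH1 siRNA library and 34.0 TPM in the control library, within 1.5-fold. With the GC adjustment, TBK1 (-0.26) came within 1.5-fold. Of the 12 genes, 2 were then higher and none was lower, against 12.6% and 5.19% of all genes.

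Genes for fusion and late steps had 1 lower (5.88%) and none higher among 17, against 8.88% and 10.2% of all genes, with a median of 0.24. The lower one was EPG5, a tether between autophagosomes and lysosomes, at 4.98 TPM in the POH1 siRNA library and 8.82 TPM in the control library. With the GC adjustment, EPG5 (-0.555) came within 1.5-fold. Of the 17 genes, none was then lower and 1 was higher, against 5.19% and 12.6% of all genes. TECPR1 was at 21.3 TPM in the POH1 siRNA library and 13.9 TPM in the control library, and VPS39, of the HOPS tether, at 94.1 TPM in the POH1 siRNA library and 67.4 TPM in the control library. RAB7A, a small GTPase of late endosomes, was at 236 TPM in the POH1 siRNA library and 171.5 TPM in the control library, and like TECPR1 and VPS39 it lay within 1.5-fold. Among the further selective receptors, 2 of 16 were higher and 2 were lower (12.5% each), against 10.2% and 8.88% of all genes, with a median of 0.28. RTN3, a receptor for tubules of the endoplasmic reticulum, was at 125 TPM in the POH1 siRNA library and 72.5 TPM in the control library, and CCPG1, another receptor of that organelle, at 2.87 TPM in the POH1 siRNA library and 1.37 TPM in the control library. FUNDC1, a receptor of mitochondria, was at 7.25 TPM in the POH1 siRNA library and 11.9 TPM in the control library, and SEC62, a translocon protein that also acts as a receptor of the endoplasmic reticulum, at 9.38 TPM in the POH1 siRNA library and 14.99 TPM in the control library. With the GC adjustment, FUNDC1 (-0.21) and SEC62 (-0.18) came within 1.5-fold. Of the 16 receptors, 4 were then higher and none was lower, against 12.6% and 5.19% of all genes.

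The kinases and nutrient sensors upstream of ULK1 had 4 higher and 4 lower among 25, with a median of 0.13. These are 16.0% each, against 10.2% and 8.88% of all genes. PRKAG1, a regulatory subunit of the energy sensor AMPK, was at 35.8 TPM in the POH1 siRNA library and 67.1 TPM in the control library. TSC2, a brake on the growth kinase complex mTORC1, was at 122 TPM in the POH1 siRNA library and 71.9 TPM in the control library, and RRAGC, a GTPase that brings mTORC1 to lysosomes, at 3.99 TPM in the POH1 siRNA library and 7.07 TPM in the control library.

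Lysosomal genes of the TFEB network had a median of 0.21. Of the 30 genes, 2 were higher and 3 were lower, against 10.2% and 8.88% of all genes. A pair of genes of the V-ATPase, the proton pump of lysosomes, were among the lower ones: ATP6V0E1 was at 98.3 TPM in the POH1 siRNA library and 275 TPM in the control library, 2.80-fold lower, and ATP6V1D at 37.7 TPM in the POH1 siRNA library and 75.9 TPM in the control library. The list's other V-ATPase genes lay within 1.5-fold. Above 0 were ATP6V0D1 (0.535), ATP6V1A (0.37) and ATP6AP1 (0.16), below it ATP6V1B2 (-0.44), ATP6V1E1 (-0.24) and ATP6V1C1 (-0.17), and ATP6V1H was level. ATP6V1D overlaps EIF2S1 on the opposite strand (64.1 TPM in the POH1 siRNA library and 225 TPM in the control library), so its value is uncertain. SCARB2, which encodes the lysosomal membrane protein LIMP-2, was at 10.4 TPM in the POH1 siRNA library and 20.0 TPM in the control library, and CLCN7, a lysosomal chloride transporter, was higher, at 35.1 TPM in the POH1 siRNA library and 18.9 TPM in the control library. With the GC adjustment, SCARB2 (-0.51) came within 1.5-fold. Of the 30 genes, 2 were then higher and 2 lower, against 12.6% and 5.19% of all genes. HEXA was listed at 0 in both libraries. The CACGTG string was in the promoter windows of 9 of the 19 genes of this list found in the RefSeq table (47.4%), against 8.33% of the 36 autophagy genes, and the list was chosen for genes of this network, which was defined with that element.

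**Figure D5:**
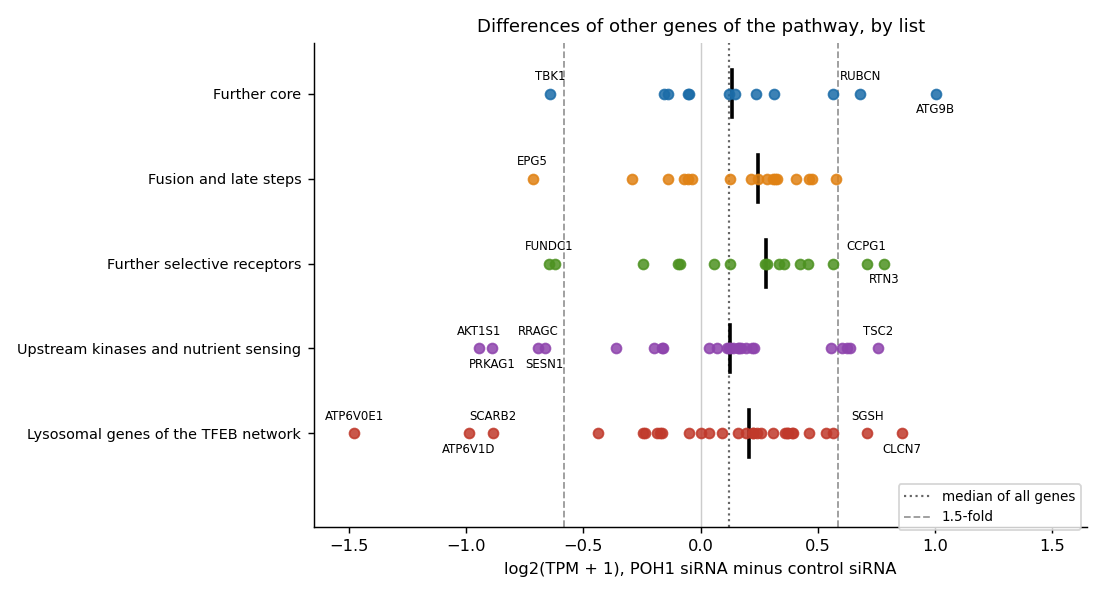
Difference in log2(TPM + 1), POH1 siRNA minus control siRNA, for 5 lists of other pathway genes averaging at least 1 TPM, with a black bar for each list's median, dashed lines at 1.5-fold and a dotted line at the median of all genes (0.12). The medians lie between 0.13 and 0.28, and ATP6V0E1 is the lowest point.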

How the data were processed

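mRNA libraries were made from total RNA of PC3 cells, 1 per siRNA, per the labels' protocols. CASAVA and HISAT2 were used with build hg19, per the submitters' processing notes; their versions, the annotation, the counting tool, strand use and depth were not given in the sources. Deposited values were TPM for each gene, which the authors scaled to a fixed total per library (sums of 999968 TPM for POH1 siRNA and 999955 TPM for control siRNA, per the deposited columns).

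Symbols came from a name table by Ensembl identifier (57392 of 58174 matched). GENCODE release 29 gave GC content (for 99.8% of the genes averaging at least 1 TPM) and exon overlaps. An opposite-strand gene averaging at least 1 TPM overlapped 15 of the 41 autophagy genes, and not all of these overlaps are named above. Differences used a pseudocount of 1 TPM and a mean of at least 1 TPM. All members were named; from each other list the 4 genes with the largest difference were named, except that some results are not reported here. HEXA, the V-ATPase genes within 1.5-fold, and the values of overlapping genes, were chosen after their values were seen. The members and lists were chosen with earlier results of these data known. The calculations, in Python 3.11.15 with pandas 2.3.3, were tested on simulated data. Alternatives were pseudocounts of 0.1 and 5, other filters, 3 other scalings, a GC adjustment over 501 genes, and sums with overlapping genes or copies.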

Additional observations from a re-analysis of the deposited data

How the results depend on the processing

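No paired analysis was possible because each group held 1 library, and no library could be left out. Of the 10 autophagy genes past 1.5-fold, 7 kept their call under every alternative that kept the gene (ATG5, ATG16L1, MAP1LC3B, GABARAPL1, GABARAPL2, CALCOCO2 and MITF, which has a mean under 5 TPM); ATG4A, LAMP2 and ULK1 did not, and the cause was not tested beyond the GC adjustment and, for ATG4A, the pseudocount of 5 (-0.46). No single gene past 1.5-fold changed sign under these alternatives. The number lower by 1.5-fold was 13 with median scaling and 13 with trimmed mean scaling, against 8, while the share of all genes was 12.3% and 12.0%, against 8.88%. These scalings lower the log2 ratios by 0.14 and 0.13 by construction (the differences of low genes by less), and ATG14, UVRAG, PIK3C3, ATG3 and GABARAP passed the threshold. The number higher by 1.5-fold was 4 with a pseudocount of 0.1 and 1 with a filter at 5 TPM, against 2 (14.0% and 9.41% of all genes, against 10.2%). At 2-fold, the number higher was 0 with a pseudocount of 5 and 0 with the filter at 5 TPM, against 1 (0.666% and 1.82% of all genes, against 2.15%). The number lower was 2 with a pseudocount of 5 and 1 with GC adjustment, against 4 (1.27% and 1.67% of all genes, against 2.93%). The median difference of the list turned to -0.039 with the filter at 5 TPM, -0.062 with median scaling and -0.051 with trimmed mean scaling, against medians of all genes of 0.14, 0.00 and 0.01. The log2 ratio of the ATG8 family sum stayed past 1.5-fold under the alternatives that apply to a sum and was nearest to 0 with GC adjustment (-0.77, against -0.86). Sums with the named copies were chosen after seeing the data. TPM carries no depth, so the counting error of low genes such as MITF, ATG2B and ATG4C cannot be given.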
